A study of Osmia excavata with 6 samples.

Results

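Opsins, arrestins and transient receptor potential (TRP) channels, the proteins that receive light and pass on sensory signals, were followed in the mason bee Osmia excavata. The study compared 3 control libraries with 3 from bees under water immersion. The 10 genes described were chosen by their level: they have the highest mean TPM (a transcript level corrected for length, with the same total in each library) over the 6 libraries among 31 bee-matched entries whose description named an opsin, an arrestin or a TRP channel, out of 37061 assembled genes. The difference between the groups was not used in this ranking, although the members were chosen with earlier results of these data known. The immersion samples are titled a decocooning group, so the effects of wetting and of emergence cannot be told apart. The labels name the species where a tissue would stand, and they give no body part, sex, age or time after immersion. Nothing says whether a library is 1 bee or a pool, so the p-values measure only the spread between these samples.

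Insect vision starts when light turns an opsin, a receptor that carries a retinal chromophore, into an active form that switches on a Gq protein and phospholipase C. In the fly this opens the channels TRP and TRP-like, and arrestin then binds the active opsin and stops the signal. Bees see with opsins tuned to ultraviolet, blue and long-wavelength light, of which the long-wavelength type is found in most receptors of each eye facet. TRP channels also serve outside the eye: in the fly, painless and pyrexia are channels of heat and pain sensing, and other TRP channels serve hearing and touch.

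The label of the set holds for 9 of the 10. They comprise the long-wavelength, blue and ultraviolet opsins, a short second entry of the long-wavelength opsin, 1 visual-type arrestin homolog, the channels painless and pyrexia, and arrestin domain-containing proteins 2 and 3, which belong to the alpha-arrestin branch of the family, adaptors of protein turnover in yeast and mammals that are not known as opsin partners. The remaining entry, Pde6d, was found because its description contains the word rhodopsin. In mammals Pde6d carries lipid-modified proteins between membranes, and it is neither an opsin, an arrestin nor a channel. Of the 10, only the arrestin homolog was placed by the deposited annotation in the KEGG pathway of fly phototransduction.

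Estimated counts summed to between 16765886 and 19953734 per library, and 92.6% to 94.5% of them lay on genes matched to Hymenoptera. Control 1 and the immersion libraries also held counts on genes matched to the worm Caenorhabditis, 3464 CPM (counts scaled to a fixed library sum) in control 1 and 14053 to 14978 after immersion, against at most 0.908 in controls 2 and 3. Immersion and whatever brought those reads cannot be fully told apart, and without control 1 not at all. One alternative fit adds a term for the 4 libraries above 1000 CPM of worm counts, so control 1 is its only control. Later paragraphs refer to it as the within-batch fit, but no label names a batch. Worm counts still differ between control 1 and the immersion libraries inside that set, so this fit does not hold them constant. Tests used edgeR's quasi-likelihood method on 9250 Hymenoptera-matched genes, and a positive log2 fold change, given with its standard error (SE), means a higher level after immersion.

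The long-wavelength opsin was the most abundant of the 10 and was lower in every immersion library than in any control, while the blue and ultraviolet opsins and the arrestin homolog differed by less. None (0) of the 10 reached the threshold of 0.05 on the adjusted p in edgeR, and neither did any of the 9250 genes tested (0%). At an unadjusted p under 0.05 there was 1 of the 10, the long-wavelength opsin, where the background was 34.8% of all genes tested. The median log2 fold change of the 10 was -0.0059, and that of all genes tested was 0.022. Of the 10, 5 were negative, against 48.8% of all genes tested.

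**Figure D1:**
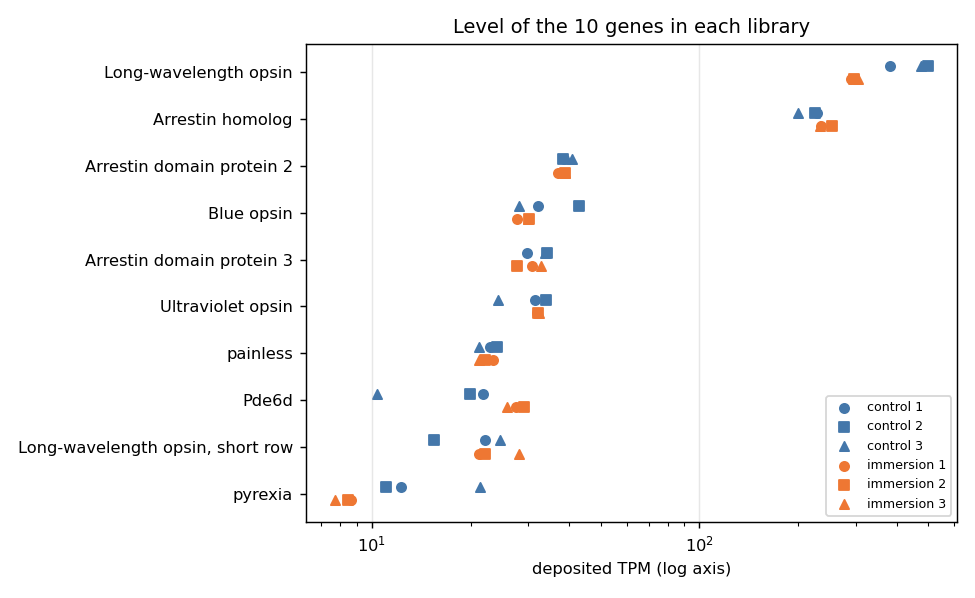
Deposited TPM of the 10 genes (log axis) in each of the 6 libraries, controls in blue and immersion libraries in orange, with 1 symbol per replicate number. The long-wavelength opsin lies between 381.39 and 497.76 TPM in controls and between 289.18 and 304.29 after immersion, and pyrexia, Pde6d and the arrestin homolog also have groups that do not overlap.

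By level, the long-wavelength opsin (TRINITY_DN11317_c0_g1) stood apart, with a lowest library of 289.18 TPM against a highest of 254.69 for the arrestin homolog (TRINITY_DN3499_c0_g1), and the arrestin homolog had 199.55 TPM in its lowest library. Next came arrestin domain-containing protein 2 (TRINITY_DN12186_c0_g1) with 37.05 to 40.86 TPM, the blue opsin (TRINITY_DN5482_c0_g2) with 27.81 to 43.02, arrestin domain-containing protein 3 (TRINITY_DN19152_c0_g1) with 27.76 to 34.13 and the ultraviolet opsin (TRINITY_DN233_c0_g1) with 24.25 to 33.95, whose ranges overlapped except that of arrestin domain-containing protein 2 with the last 2. Then followed painless (TRINITY_DN173_c2_g5), Pde6d (TRINITY_DN16838_c0_g1) and the short long-wavelength entry (TRINITY_DN11317_c0_g3), with overlapping ranges and means of 22.5, 22.4 and 22.3 TPM. The last to be kept was pyrexia (TRINITY_DN2389_c0_g1), with a mean of 11.6 TPM, and the next in order was a partial long-wavelength opsin matched to Osmia bicornis (TRINITY_DN15885_c0_g1), with 8.07. These levels chose the genes and are given as a description. After it came a short ultraviolet entry (TRINITY_DN17943_c0_g1) with a mean of 7.61 TPM and a short Trpgamma entry (TRINITY_DN12103_c0_g2) with one of 7.02, neither of which passed the filter on low counts. All 10 had counts in every library and passed the filter on low counts, although the short entry had only 18.66 to 37.05 counts per library.

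The long-wavelength opsin, which sets green sensitivity in the bee eye, had 381.39, 497.76 and 473.70 TPM in controls 1, 2 and 3 and 289.18, 296.42 and 304.29 in immersion libraries 1, 2 and 3. The groups did not overlap, and control 1 was the control nearest to the immersion libraries. As normalised CPM, which are counts over library sizes scaled by TMM factors, the mean was 569.8 ± 66.1 over the controls (SD, n = 3) and 382.1 ± 20.8 over the immersion libraries (SD, n = 3). The log2 fold change was -0.58 ± 0.16 (SE), and edgeR gave an unadjusted p of 0.00844 (adjusted p = 0.0924). DESeq2 called the gene (log2 fold change -0.61, adjusted p = 0.00715), as it did 21.9% of all genes tested (14.8% lower and 7.17% higher). It was also called without control 1 (-0.67, adjusted p = 0.0122), where 52.3% of the genes tested were called (26.6% lower and 25.7% higher). Limma-voom with library weights called 4 of the 10, the long-wavelength and blue opsins and pyrexia lower and Pde6d higher, where it called 68.9% of all genes tested, 32.6% lower and 36.2% higher. In the within-batch fit the value of the long-wavelength opsin was -0.37 (adjusted p = 0.686), and with trends on transcript length removed it was -0.77 (adjusted p = 0.0751). Counts behind it were 6945.86 to 9826.67 per library, so counting error was small beside the spread between libraries.

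The blue opsin had 32.25, 43.02 and 28.21 TPM in controls and 27.81, 30.20 and 29.89 after immersion. All immersion values lay inside or just below the range of the controls, and control 2 alone was high. Its log2 fold change was -0.22 ± 0.19 (edgeR, adjusted p = 0.399). With length trends removed it was -0.58 (edgeR, adjusted p = 0.0978), so its size depended on the length correction. The ultraviolet opsin had 31.53, 33.95 and 24.25 TPM in controls and 31.89, 32.12 and 32.33 after immersion. Here control 3 was the low library, and the fold change was 0.15 ± 0.16 (edgeR, adjusted p = 0.498), and 0.30 with length trends removed.

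Because depth and scaling cancel in a ratio within a library, the opsins were also compared with each other. The sums were over the opsin entries among the 10, so the long-wavelength opsin has its main and short entries and the ultraviolet opsin its main entry alone. So summed, the long-wavelength opsin made up 86.3%, 87.0% and 90.5% of the opsin TPM in controls 1, 2 and 3 and 83.9%, 83.6% and 84.2% in the immersion libraries. The share of the ultraviolet opsin was 6.75%, 5.75% and 4.40% in controls and 8.62%, 8.43% and 8.19% after immersion, and that of the blue opsin was 6.90%, 7.29% and 5.12% against 7.52%, 7.93% and 7.57%. These shares did not overlap between the groups with these entries, and control 1 lay nearest to the immersion libraries for the long-wavelength and ultraviolet shares. The mean difference was -4.02 percentage points for the long-wavelength opsin, 2.78 for the ultraviolet opsin and 1.24 for the blue opsin. On normalised CPM, which does not correct for the longer ultraviolet transcript, they were -6.76, 5.94 and 0.82. With 3 libraries against 3 an exact permutation test cannot give a p below 0.10, so these shares were not tested. The separation depended on the entries summed. The short ultraviolet entry (TRINITY_DN17943_c0_g1), 212 bases long and with 0 to 7.54 counts per library, had 18.18, 11.15 and 5.85 TPM in controls and 8.11, 0 and 2.38 after immersion. With it the ultraviolet share was 10.2%, 7.5% and 5.41% in controls and 10.6%, 8.43% and 8.74% after immersion. The long-wavelength share was then 83.1%, 85.3% and 89.5% against 82.1%, 83.6% and 83.7%, and both shares overlapped through control 1, while the blue share did not overlap. On normalised CPM the ultraviolet share with that entry was 14.5%, 11.8% and 9.22% in controls and 18.2%, 17.7% and 17.4% after immersion, without overlap. With the main long-wavelength, blue and ultraviolet entries alone, the long-wavelength share was 85.7%, 86.6% and 90.0% in controls and 82.9%, 82.6% and 83.0% after immersion, again without overlap. The summed opsin level was 467, 590.2 and 551 TPM in controls and 370.1, 381 and 395 after immersion, without overlap. There were 1.02, 1.27 and 1.16 blue opsin transcripts per transcript of the main ultraviolet entry in controls and 0.872, 0.940 and 0.925 after immersion. With the short ultraviolet entry these ratios were 0.649, 0.954 and 0.937 against 0.695, 0.940 and 0.861, with overlap and with control 1 lowest.

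**Figure D2:**
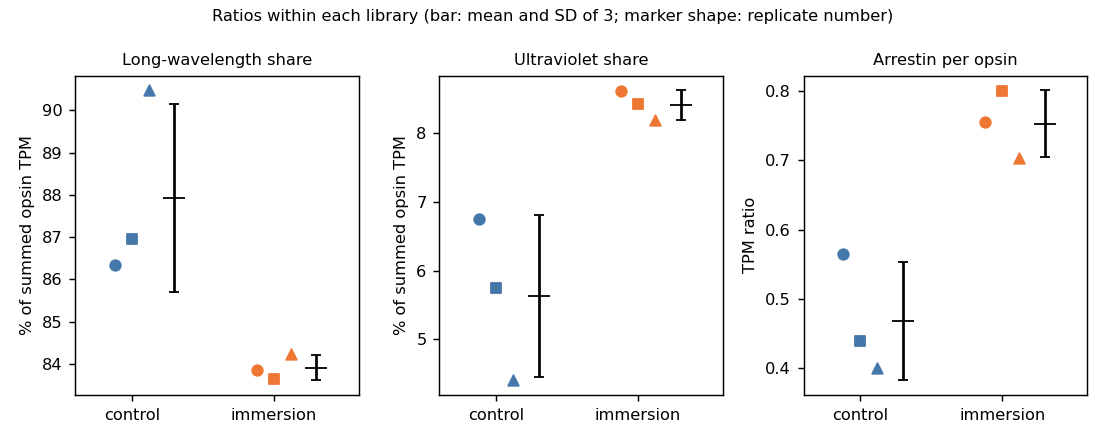
Share of the long-wavelength and ultraviolet opsins in the summed opsin TPM (%), and TPM of the arrestin homolog divided by that of the long-wavelength opsin, per library, with mean and SD of 3 beside each group. The vertical axes do not start at 0. The sums leave out the short ultraviolet entry. The long-wavelength share is 86.3% or more in controls and 84.2% or less after immersion, and it overlaps (83.1% in control 1, 83.7% in immersion library 3) with that entry added, and the arrestin ratio is 0.565 or less in controls and 0.703 or more after immersion.

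The arrestin homolog, which in the fly quenches active opsin, was by TPM higher in every immersion library than in any control, the opposite order to the long-wavelength opsin. It had 227.77, 225.85 and 199.55 TPM in controls and 234.45, 254.69 and 233.87 after immersion. The groups did not overlap by TPM but did by normalised CPM, where control 1 (292.6) lay above immersion library 1 (288.7). Its log2 fold change was 0.18 ± 0.15 (edgeR, adjusted p = 0.392) and -0.09 with length trends removed. There were 0.565, 0.440 and 0.400 arrestin transcripts per long-wavelength opsin transcript in controls and 0.755, 0.800 and 0.703 after immersion. That ratio shows unequal change of the pair, and not which of them changed. The main ultraviolet entry per arrestin overlapped between groups, with means of 0.137 ± 0.014 and 0.133 ± 0.0065 (SD, n = 3 each).

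The alpha-arrestins among the 10 had fold changes near 0. Arrestin domain-containing protein 2 had 38.51, 38.35 and 40.86 TPM in controls and 37.05, 38.99 and 38.77 after immersion, and its log2 fold change was -0.02 ± 0.13 (edgeR, adjusted p = 0.918). Arrestin domain-containing protein 3 had 29.84, 34.13 and 33.83 TPM against 30.77, 27.76 and 32.86, with a log2 fold change of 0.0073 ± 0.14 (edgeR, adjusted p = 0.971). The groups overlapped in both genes, and the sign of both changed with the scaling. A further alpha-arrestin outside the 10, described as arrestin domain-containing protein 3-like (TRINITY_DN6079_c0_g2), had 5.54, 9.35 and 13.65 TPM in controls and 3.91, 3.44 and 4.19 after immersion. Its log2 fold change was -1.28 ± 0.34 (edgeR, adjusted p = 0.0907), and -0.54 in the within-batch fit.

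Of the channels painless and pyrexia, pyrexia alone had groups that did not overlap, and by TPM only. Painless, which in the fly is needed for the response to harmful heat, had 22.98, 24.16 and 21.23 TPM in controls and 23.44, 22.13 and 21.19 after immersion, with a log2 fold change of -0.06 ± 0.18 (edgeR, adjusted p = 0.814). Its groups overlapped on both scales. Pyrexia, a heat-activated channel in the fly, had 12.29, 11.06 and 21.39 TPM in controls and 8.63, 8.48 and 7.73 after immersion, without overlap. By normalised CPM it had 16.95, 31.0 and 45.1 in controls and 21.1, 21.3 and 23.0 after immersion, so that control 1 was the lowest of all 6 libraries. The log2 fold change was -0.51 ± 0.33 (edgeR, adjusted p = 0.275), -0.80 without control 1 (adjusted p = 0.0156), -0.14 without control 3 and 0.36 in the within-batch fit. By TPM the groups were apart in the lower direction, and on counts the direction turned in the within-batch fit, which has control 1 as its only control.

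The gap between the scales for pyrexia lay in transcript length. Estimated counts divided by TPM give the length the authors' quantification assigned to a gene in a library, scaled here so that genes with 1 assembled transcript have their own length at the median. For pyrexia, with 7 assembled transcripts, this implied length was 1953 bases in control 1, 4250 and 3087 in controls 2 and 3, and 3606, 3427 and 4318 after immersion. By this measure control 1 had its reads assigned to shorter pyrexia transcripts than the other libraries. Among 5950 bee genes with several transcripts the median ratio of the longest to the shortest implied length was 1.07, and 0.555% had a ratio as large as that of pyrexia or larger. The long-wavelength opsin, with 6 transcripts, stayed between 1833 and 1866 bases and the arrestin homolog between 1817 and 1826.

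**Figure D3:**
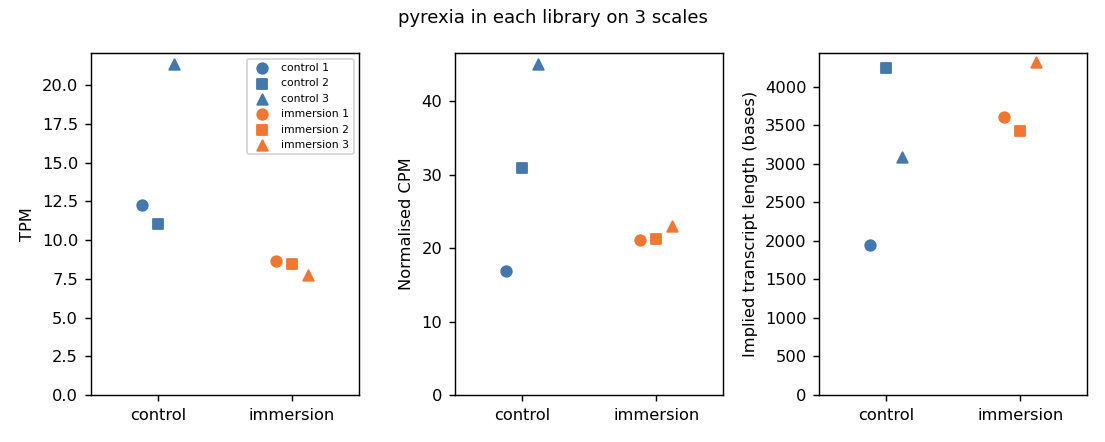
Pyrexia in each library as TPM, as normalised CPM and as implied transcript length in bases, controls in blue and immersion libraries in orange. Control 1 has the lowest normalised CPM (16.95) and the shortest implied length (1953 bases), while its TPM (12.29) lies above the immersion libraries (7.73 to 8.63).

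Pde6d had 21.90, 19.92 and 10.35 TPM in controls and 27.54, 29.10 and 25.79 after immersion, higher in every immersion library than in any control. Control 3 was the low library. Its log2 fold change was 0.61 ± 0.29 (edgeR, unadjusted p = 0.0701, adjusted p = 0.168), 0.36 without control 3 and 0.34 in the within-batch fit. Together with the long-wavelength opsin it made 2 of the 10 genes whose groups did not overlap by normalised CPM, where the background was 46.2% (22.2% lower and 24% higher). By TPM there were 4, the long-wavelength opsin and pyrexia lower and the arrestin homolog and Pde6d higher, where the background was 44.6% (19.8% lower and 24.9% higher).

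**Figure D4:**
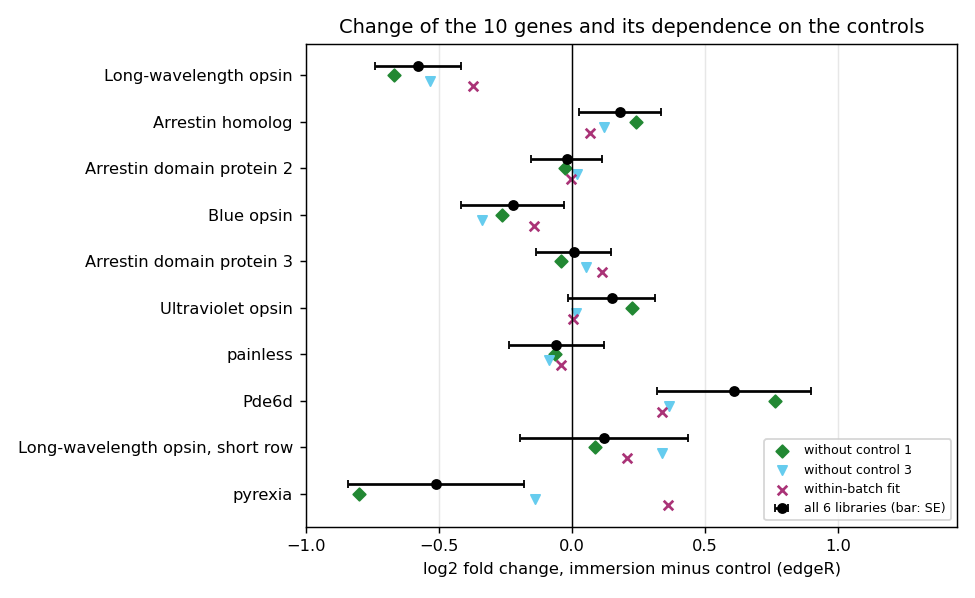
Log2 fold change (immersion minus control, edgeR) of the 10 genes from all 6 libraries with its SE, and the values without control 1, without control 3 and from the within-batch fit. The long-wavelength opsin stays between -0.67 and -0.37, and pyrexia runs from -0.80 to 0.36.

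Several long-wavelength entries came from the same assembled component, so reads can be split between them. The short entry of 357 bases had 22.08, 15.51 and 24.68 TPM in controls and 21.17, 22.11 and 28.18 after immersion, with overlap and a log2 fold change of 0.12 ± 0.32 (edgeR, adjusted p = 0.778). Another entry of that component (TRINITY_DN11317_c0_g4), described as rhodopsin-like and 2674 bases long, had 8.65, 5.17 and 2.06 TPM in controls and 8.73, 7.95 and 7.52 after immersion. Control 1 was level with the immersion libraries there, and the log2 fold change was 0.63 ± 0.47 (edgeR, adjusted p = 0.325). As a share of the main entry the short entry stood at 5.79%, 3.12% and 5.21% TPM in controls and 7.32%, 7.46% and 9.26% after immersion, without overlap between the groups. The partial opsin next in order, 395 bases long, had 1.73, 4.3 and 13.81 TPM in controls and 12.61, 6.81 and 9.16 after immersion. There control 3 was the highest library and control 1 the lowest, with a log2 fold change of 0.32 ± 0.72 (edgeR, adjusted p = 0.743), 1.56 without control 3 and 2.52 in the within-batch fit.

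Of the 21 entries beyond the 10, 12 passed the filter on low counts and the other 9 had too few counts to be tested. Most TRP channels were among these less abundant entries. They include 15 TRP entries, of which 8 were tested, 7 of them had a negative log2 fold change, and 4 were lower at an unadjusted p under 0.05, against 20.6% of all genes tested. The channel trp (TRINITY_DN13358_c0_g2), the namesake light-activated channel of the fly photoreceptor, had 3.81, 7.58 and 8.16 TPM in controls and 3.25, 3.30 and 3.70 after immersion, with control 1 just above the immersion libraries (log2 fold change -0.86 ± 0.29, edgeR adjusted p = 0.107, within-batch -0.18). Trpm (TRINITY_DN16036_c0_g1), in the fly a channel of zinc and magnesium balance, had 4.54, 6.73 and 8.8 TPM against 4.29, 3.12 and 3.98 (-0.75 ± 0.25, edgeR adjusted p = 0.106). Trpgamma (TRINITY_DN2332_c0_g3), a relative of trp, had 3.68, 6.21 and 9.32 against 4.39, 2.95 and 4.21, with overlap (-0.78 ± 0.35, edgeR adjusted p = 0.153).

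Entries of TRP subfamily V had the largest log2 fold changes of the 12, from few counts. The entry described as member 6 (TRINITY_DN22613_c0_g2) had 3.69, 3.90 and 4.2 TPM in controls and 1.07, 0.70 and 0.32 after immersion, from 30.07 to 33 counts in controls and 3 to 10.06 after immersion. Its log2 fold change was -2.56 ± 0.42 (edgeR, adjusted p = 0.0696), and here control 1 lay with the other controls, with a within-batch value of -2.41. The entry described as member 5 (TRINITY_DN22613_c0_g1), from the same component, had 2.69, 3.81 and 3.56 TPM against 1.00, 1.15 and 0.44 (-1.96 ± 0.42, edgeR adjusted p = 0.0907, within-batch -1.58). Another entry of that component, also described as member 5 (TRINITY_DN22613_c0_g4), had 3.65, 5.28 and 2.25 TPM in controls and 5.26, 1.69 and 2.35 after immersion, with overlap. It had 3 to 10 counts per library and was not tested. As neighbours in 1 component these entries may be pieces of 1 gene. Among the tested TRP entries the second pyrexia entry (TRINITY_DN24006_c1_g1) had the only positive value, 0.07 ± 0.26 from 1.53 to 2.36 TPM, and another pyrexia entry (TRINITY_DN11742_c0_g1) had -0.40 ± 0.33 from 1.24 to 2.87 TPM. Without control 3, edgeR called the member 6 entry (adjusted p = 0.0385), where 3.87% of all genes tested were called (2.98% lower and 0.887% higher). These channels are listed here by their matched names, and what they do in this bee is not stated by the labels.

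The other genes of the light response were taken from a list of Gq, phosphoinositide, scaffold, chromophore, ion exchange and transmitter genes, joined with the 21 remaining search entries. It holds 57 entries and none of the 10. Of these 46 were tested, and 0 reached the threshold on the adjusted p in edgeR. At an unadjusted p under 0.05 there were 20 lower and 1 higher, against 20.6% lower and 14.2% higher among all genes tested. Of the 20, 5 were search entries: trp, Trpm, arrestin domain-containing protein 3-like and the tested member 5 and member 6 entries of subfamily V. The list's median log2 fold change was -0.49, and that of all genes tested was 0.022. Its median was -0.13 in the within-batch fit and -0.20 with length trends removed, where all genes tested had 0.011 and 0.057.

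Downstream of the opsins, Gq alpha (TRINITY_DN5284_c0_g1), the protein that opsins activate, had 55.8, 85.91 and 117.78 TPM in controls and 54.31, 48.29 and 56.97 after immersion, with control 1 among the immersion libraries (log2 fold change -0.60 ± 0.24, edgeR adjusted p = 0.134). norpA (TRINITY_DN3958_c0_g1), the phospholipase C of fly vision, had 71.34, 107.72 and 179.45 TPM against 58.58, 56.23 and 64.83 (-0.92 ± 0.30, edgeR adjusted p = 0.105). Every immersion library lay below every control for this entry, with control 1 nearest, and its value was -0.27 in the within-batch fit and -0.14 with length trends removed, from a transcript of 10820 bases. A second entry with the symbol norpA (TRINITY_DN1597_c0_g1) had 34.72, 46.09 and 34.55 TPM against 30.76, 29.67 and 36.17, with overlap. Its log2 fold change was -0.20 ± 0.16 (edgeR, adjusted p = 0.370), and 0.010 with length trends removed. Of 7 tested genes of this step 3 were lower at an unadjusted p under 0.05 and none (0) higher. The same share of all genes tested is 20.6% lower. In the phosphoinositide cycle, which renews the lipid that phospholipase C splits, 3 of 11 were lower and none (0) higher, beside 20.6% and 14.2% of all genes tested, and 6 of the 11 had a positive fold change (median 0.017). The eye-type diacylglycerol kinase rdgA (TRINITY_DN2395_c0_g1) had 35.95, 53.8 and 75.25 TPM against 35.21, 28.9 and 33.65 (-0.70 ± 0.25, edgeR adjusted p = 0.118, and 0.073 with length trends removed). The transfer protein rdgB (TRINITY_DN3020_c0_g1), which in the fly carries phosphatidylinositol back to the light-sensing membrane, had 30.53, 39.23 and 52.98 TPM against 39.59, 31.48 and 37.21, with overlap (-0.12 ± 0.20, edgeR adjusted p = 0.656). All 4 scaffold and kinase genes were lower at that p. Gprk1 (TRINITY_DN15717_c0_g4), a kinase that in the fly phosphorylates rhodopsin, had 36.97, 58.69 and 78.35 TPM in controls and 33.12, 29.09 and 30.22 after immersion (-0.85 ± 0.25, edgeR adjusted p = 0.0942). The myosin III entry MYO3A (TRINITY_DN3032_c0_g1), a relative of ninaC, had 30.08, 57.53 and 65.38 TPM against 32.75, 35.34 and 43.69 (-0.67 ± 0.23, edgeR adjusted p = 0.112). Control 1 was the lowest library there by TPM, and the within-batch value was -0.11. The entry annotated as ninaC itself (TRINITY_DN13930_c0_g1), which in the fly binds the signalling complex and arrestin, had 11.9, 21.46 and 17.86 TPM in controls and 7.41, 8.91 and 9.58 after immersion. Its groups did not overlap on either scale (-0.90 ± 0.22, edgeR adjusted p = 0.0907, within-batch -0.48).

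The sodium/potassium/calcium exchanger Nckx30C (TRINITY_DN628_c0_g5), which in the fly removes calcium from photoreceptors and other neurons, had the smallest p of the named genes of the list. It had 62.52, 96.65 and 132.48 TPM in controls and 26.03, 22.21 and 16.14 after immersion, so that control 1 too stood well above the immersion libraries. Its log2 fold change was -2.20 ± 0.29 (edgeR, unadjusted p = 8.76e-05, adjusted p = 0.0639), and -1.50 in the within-batch fit. The exchanger SLC24A3 (TRINITY_DN2877_c0_g1) had 13.05, 18.82 and 19.83 TPM against 15.18, 12.09 and 12.88, with overlap (-0.28 ± 0.17, edgeR adjusted p = 0.243). Of 6 exchanger entries tested, some of them from the same assembled component, 4 were lower at an unadjusted p under 0.05. Of 5 chromophore entries 1 was lower and 1 higher at that p. The same shares of all genes tested were 20.6% lower and 14.2% higher. In the fly pinta binds retinoid and is needed to make the visual pigment. The entry with the symbol pinta (TRINITY_DN4217_c0_g1) is described as alpha-tocopherol transfer protein-like. It had 42.81, 27.96 and 22.5 TPM in controls and 45.43, 46.56 and 45.18 after immersion (0.48 ± 0.26, edgeR adjusted p = 0.200). Control 1 was close to the immersion libraries, and the value was 0.051 in the within-batch fit. Fly ninaA is a rhodopsin chaperone that brings opsin to the membrane. The entry with the symbol ninaA (TRINITY_DN3610_c0_g1) is described as peptidyl-prolyl cis-trans isomerase 6. It had 23.11, 17.96 and 10.74 TPM in controls and 26.09, 28.34 and 34.67 after immersion (0.73 ± 0.29, edgeR adjusted p = 0.128), and 0.38 in the within-batch fit. Histidine decarboxylase, Hdc (TRINITY_DN291_c0_g1), which makes the photoreceptor transmitter histamine, had 9.17, 14.45 and 21.38 TPM against 14.28, 12.51 and 11.24, with overlap (-0.23 ± 0.29, edgeR adjusted p = 0.553).

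**Figure D5:**
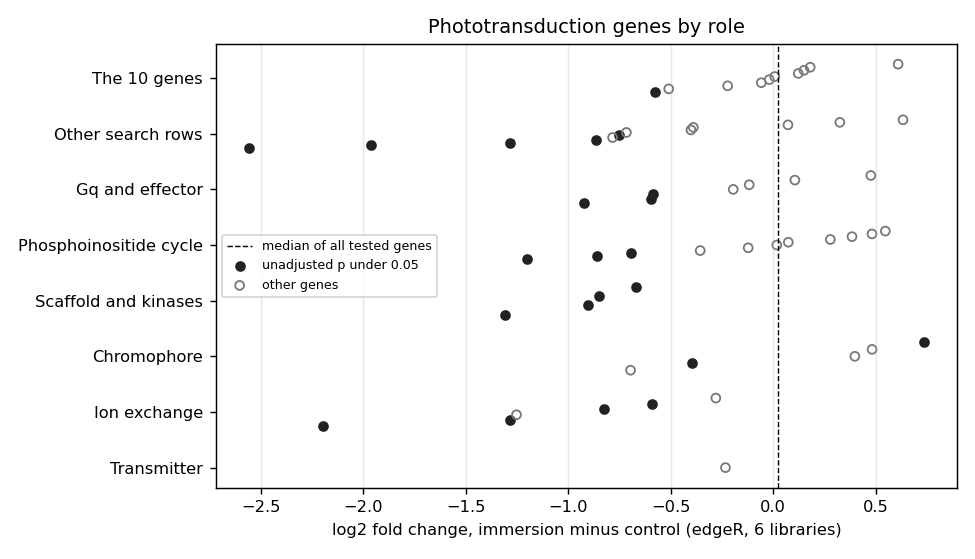
Log2 fold change (immersion minus control, edgeR, 6 libraries) of the 10 genes, the other tested search entries and tested phototransduction-list entries by role. Filled points have an unadjusted p under 0.05, and a dashed line marks the median of all genes tested (0.022). The 10 genes scatter around the line with 1 filled point, and the other search entries have 5, all to its left.

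Markers of eye tissue and of other cell types were counted in the same way, beside 20.6% lower and 14.2% higher among all genes tested. In bulk RNA fewer cells of a type and less RNA per cell cannot be told apart. Of 30 photoreceptor and eye entries 23 were tested, with 9 lower and none (0) higher at an unadjusted p under 0.05. Their summed level was 346 to 406 TPM in controls and 333 to 354 after immersion, and none (0) was listed at 0 in all libraries. A single entry, tryptophan 2,3-dioxygenase, held 120.86 to 173.3 TPM of that sum in controls and 158.88 to 189.64 after immersion. White (TRINITY_DN2617_c0_g1), a pigment transporter of the eye, had 24.7, 34.69 and 41.05 TPM in controls and 22.25, 18.65 and 24.55 after immersion (-0.57 ± 0.20, edgeR adjusted p = 0.113). Tryptophan 2,3-dioxygenase (TRINITY_DN1167_c0_g1), which starts the synthesis of eye pigment, had 173.3, 153.24 and 120.86 TPM against 172.71, 189.64 and 158.88, with overlap (0.21 ± 0.19, edgeR adjusted p = 0.422). The retinal homeobox gene Rx (TRINITY_DN1794_c0_g1) overlapped as well, with -0.16 ± 0.20 (edgeR, adjusted p = 0.539). Of the 23 tested eye entries 20 had a negative fold change and 3 a positive one. Of 27 neuron entries 18 were tested, with 13 lower and none (0) higher, and their sum was 741 to 1427 TPM in controls and 613 to 696 after immersion, with 2 listed at 0 throughout. Of 8 glia entries 7 were tested and 4 were lower, with sums of 611 to 1165 and 547 to 645 TPM. Of 50 muscle entries 43 were tested and 23 were lower, with sums of 24752 to 26571 TPM in controls and 19436 to 32564 after immersion, and 2 were listed at 0 throughout. Of 13 fat body entries 7 were lower and 1 higher at that p, with sums of 6041 to 29372 and 6364 to 8126 TPM. Median log2 fold changes were -0.48 for eye, -0.85 for neuron, -0.41 for glia, -0.81 for muscle and -0.81 for fat body entries. In the within-batch fit these medians were -0.081, -0.27, -0.13, -0.35 and -0.29. With length trends removed they were -0.24, -0.41, -0.25, -0.25 and -0.41. All genes tested had 0.022, 0.011 in the within-batch fit and 0.057 with length trends removed. The 1 mechanosensory entry, Piezo (TRINITY_DN10461_c0_g1), had 35.67, 60.74 and 83.86 TPM in controls and 29.64, 37.13 and 34.91 after immersion, with overlap. Its log2 fold change was -0.79 ± 0.28 (edgeR, adjusted p = 0.113), -0.21 in the within-batch fit and -0.055 with length trends removed. The blue and ultraviolet opsins and the arrestin homolog had log2 fold changes of -0.22, 0.15 and 0.18 in edgeR. With length trends removed these were -0.58, 0.30 and -0.09. The part of these markers in the lower long-wavelength opsin was not tested.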

How the data were processed

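The authors deposited, for an assembly made without a genome, 1 table with estimated counts (decimals included) and TPM for each gene and library, where TPM is scaled for length and library. Cutadapt 1.9, Salmon and edgeR are named in the submitters' processing notes, with no role for any of them, and how the assembly and annotation were made is not stated there. Labels name 3 control and 3 immersion samples, and the column heading WI was read as water immersion. After rounding, counts went into edgeR 4.0.16 (R 4.3.3, filterByExpr, TMM, glmQLFit, glmQLFTest, two-sided, Benjamini-Hochberg) on genes whose description names a Hymenoptera genus, because worm- and mammal-matched genes differ between libraries. The method was checked on simulated data with the same spread for all genes and no outlying library. That check does not cover the differences between the controls seen here. Alternatives were DESeq2 1.42.0, limma 3.58.1 (voom and log2 TPM), other scalings and filters, all genes of the table, loess length trends (span 0.3), a term for libraries above 1000 CPM of worm counts, a block for the replicate number, and leaving out each library. Normalised CPM are counts over TMM-scaled library sizes. Genes were named by a rule: the 10, the next 3 in order, up to 2 per role of the phototransduction list and up to 3 per marker list by mean TPM (values are given for the eye list). In addition, arrestin domain-containing protein 3-like, rhodopsin-like, trp, Trpm, Trpgamma and the subfamily V entries were named as further entries of the search, and Piezo as the only entry of its list. The ninaC entry, the second norpA entry and the untested subfamily V entry were named after their values had been seen. The members and lists were chosen with earlier results of these data known. The implied transcript length was computed after the values had been seen, from genes of at least 1000 bases with at least 50 counts in every library.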

Additional observations from a re-analysis of the deposited data

How the results depend on the processing

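The long-wavelength opsin kept its negative direction under every alternative run, between -0.77 (length trends removed) and -0.37 (within-batch fit). Called genes, 0 in edgeR with all 6 libraries, numbered 2028 in DESeq2, 6369 in limma-voom with library weights, 28 with length trends removed, 1 in the within-batch fit and 0 to 4912 with 1 library left out (4912 without control 1, 362 without control 3). Of the 10 genes, 1 was called by DESeq2, beside 21.9% of all genes tested, and 4 by limma-voom with weights, beside 68.9%. With 1 library left out 0 to 2 of them were called. The 2 were the long-wavelength opsin and pyrexia without control 1, beside 52.3% of all genes tested. The phototransduction list had 46 entries tested with all 6 libraries. Of the list, 14 were called by DESeq2, beside 21.9% of all genes tested, and 34 by limma-voom with weights, beside 68.9%. With length trends removed 1 was called, beside 0.303%. With 1 library left out 0 to 28 were called. These were 28 without control 1, beside 52.3% of all genes tested, and 3 without control 3, beside 3.87%. The list's median went from -0.49 to -0.13 in the within-batch fit. On normalised CPM the long-wavelength and ultraviolet shares differed by -6.76 and 5.94 percentage points. The ultraviolet share differed by 1.54 points with the short ultraviolet entry and by 1.38 with the partial long-wavelength entry as well.

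Several values changed sign. Arrestin domain-containing protein 2 (TRINITY_DN12186_c0_g1) went to 0.023 with library weights, 0.081 with upper-quartile scaling and 0.0019 with all genes, and ran from -0.056 to 0.028 with 1 library left out. Arrestin domain-containing protein 3 (TRINITY_DN19152_c0_g1) went to -0.025 in DESeq2, -0.0045 with library weights, -0.026 with RLE, -0.012 with the filter of 5 CPM, -0.096 and -0.098 on log2 TPM with pseudocounts of 1 and 0.1, and -0.13 with length trends removed, and ran from -0.041 to 0.053 with 1 left out. The arrestin homolog went to -0.089 with length trends removed, painless to 0.039 with upper-quartile scaling, and pyrexia to 0.36 in the within-batch fit. The short long-wavelength entry ran from -0.035 to 0.34, the partial opsin of Osmia bicornis (TRINITY_DN15885_c0_g1) from -0.16 to 1.56 and a second pyrexia entry (TRINITY_DN24006_c1_g1) from -0.071 to 0.25 with 1 left out. In the within-batch fit rhodopsin-like went to -0.11 and the other pyrexia entries to -0.23 (TRINITY_DN24006_c1_g1) and 0.097 (TRINITY_DN11742_c0_g1). With length trends removed rdgA (TRINITY_DN2395_c0_g1) went to 0.073, rdgB (TRINITY_DN3020_c0_g1) to 0.55 and SLC24A3 (TRINITY_DN2877_c0_g1) to 0.43. rdgB also went to 0.033 with library weights and 0.18 in the within-batch fit, where Hdc (TRINITY_DN291_c0_g1) went to 0.41, tryptophan 2,3-dioxygenase (TRINITY_DN1167_c0_g1) to -0.032 and Rx (TRINITY_DN1794_c0_g1) to 0.197. With 1 library left out rdgB ran from -0.25 to 0.11 and Hdc from -0.47 to 0.086. The cause of these changes was not tested. Upper-quartile scaling moved the median of all genes tested from 0.022 to 0.12. The replicate number as a block called 0 genes and 0 of the 10. Deviations of samples with the same number had r of -0.15, 0.14 and 0.16. Those of samples with different numbers had r of -0.29 to 0.235. With 3 samples per group these values cannot decide whether the numbers pair the samples, and the labels do not say. With 18.66 to 37.05 counts in the short opsin entry and 3 to 10.06 in the subfamily V member 6 entry after immersion, small differences in these were not detectable at this depth. Leaving out libraries for the shares, and summing other opsin entries, were added after the data were seen.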
